A study of Mus musculus with 12 samples.

Results

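Myc and 33 genes of ribosome biogenesis were followed by symbol in libraries labelled as CD8 T cells of WT or TCF-1 cKO mice. The cells were taken before and 7 days after transplantation into allogeneic recipients. These 34 genes were taken by symbol out of 35855 genes with a transcript in the files. All 34 passed the filter on low counts in every comparison. They comprised Myc, 3 genes of RNA polymerase I transcription (Polr1a, Polr1c, Ubtf), 4 genes that organise the nucleolus or chaperone its parts (Ncl, Npm1, Nolc1, Gnl3), 3 box C/D and 4 box H/ACA snoRNP genes, 9 genes of 40S and 8 of 60S subunit assembly, and the nucleolar factors Ddx21 and Gpatch4.

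Ribosomes are built in the nucleolus, where RNA polymerase I transcribes the ribosomal RNA precursor, guide RNA-protein complexes methylate and pseudouridylate it, and assembly factors cut, fold and pack it with ribosomal proteins into the small (40S) and large (60S) subunits. Myc is a transcription factor that binds DNA as a dimer with Max at the E-box CACGTG, and genes of ribosome biogenesis are among its best known targets. Activated T cells induce Myc and enlarge their nucleoli before they divide, and TCF-1, encoded by Tcf7, is a DNA-binding factor of the naive and memory T cell program that recognises CTTTGAT-like sites.

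The study compared 4 groups of 3 libraries each on the C57BL/6 background. WT and TCF-1 cKO cells (TCF-7 cKO in the labels, a floxed Tcf7 deleted by CD4-cre, so from the double-positive stage of thymocytes on) were sorted from donor spleens as pre-transplant samples, or were recovered at day 7 as H2Kb+ donor cells from the spleens of lethally irradiated BALB/c recipients that had received CD3 T cells with T-cell-depleted WT bone marrow. The question was which genes TCF-1 controls in alloactivated CD8 T cells, and here it is asked of the ribosome biogenesis genes.

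The libraries limited what could be read from them. Totals lay between 18184814 and 32657005 estimated counts, except in the TCF-1 cKO pre-transplant libraries with 4520270 to 9577076, where 3 counts, the smallest level taken as shown, correspond to 0.313 to 0.664 CPM (counts scaled to a common library size). The 6 pre-transplant libraries went against their CD8 T cell label. The 7 B cell markers summed to between 9211 and 16740 CPM there against 563 to 1234 CPM for the 5 T cell markers. T cell markers were lower in the TCF-1 cKO pre-transplant libraries (563 to 613 CPM) than in the WT ones (1166 to 1234 CPM). At day 7 the T cell markers reached 3125 to 5167 CPM and the B cell markers 229 to 467 CPM, most of it Ighm. The 3 CD4 T cell markers summed at day 7 to 9.15 to 50.2 CPM in WT against 3.54 to 8.49 CPM in TCF-1 cKO libraries. Of these Zbtb7b (log2 fold change -3.34) and Foxp3 (-3.99, with overlapping groups) were called lower in TCF-1 cKO libraries, and Cd4 itself (-0.12 ± 0.71 SE) was not. Replicate 2 of the TCF-1 cKO libraries at day 7 has a source name that speaks of CD4 cells where its remaining labels do not, and it was kept in the group its genotype and stage give. Cd4 stood there at 1.42 CPM, the lowest of the 3 libraries of that group. The 6 erythroid markers summed to 4459 to 26440 CPM before and 205 to 1193 CPM after transplantation, and the 7 myeloid markers to 2088 to 3980 CPM before and 387 to 617 CPM after. At day 7 the myeloid markers Lyz2 (2.16, with overlapping groups) and S100a9 (2.49, without overlap) were called higher in TCF-1 cKO libraries. The myeloid list was split there, with 4 negative and 3 positive log2 fold changes and a median of 0. Among those not called, Cst3 (-1.45) was lower and S100a8 (1.37) higher without overlap. The part of these other cells in the differences described here was not tested. Tcf7 itself was called between genotypes at neither stage (adjusted p = 0.223 before transplantation and 0.308 at day 7 by edgeR's quasi-likelihood test). Before transplantation it was lower in TCF-1 cKO libraries without overlap (log2 fold change -1.35). It did not separate the genotypes at day 7, when the library labelled WT post-transplant replicate 3 (6.13 CPM) fell below the 3 TCF-1 cKO libraries (7.64 to 8.42 CPM), while replicates 1 and 2 of WT stood at 20.6 and 18.1 CPM. Counts of called members and of the other lists that involve day 7 WT cells are therefore also given without that library. Nothing in the labels says how the 3 samples of each day 7 group were divided among recipients, so p-values measure the spread between these samples.

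Promoter windows of 250 bases before to 50 bases after an annotated start were held for 27 of the 34 genes (RefSeq, GRCm38.p6). The E-box CACGTG, which reads the same on both strands, occurred in the windows of 5 of these 27 genes (18.5%), against 8.09% of the 27025 genes with a window. The TCF/LEF site CTTTGAT was searched on both strands and was found in 1 of the 27 genes, Noc4l (3.7%), against 4.29% of all genes with a window. The motifs share no position in these windows, since no gene held both. The 6 matches are shown because Myc and TCF-1 are the factors in question. Capitals mark the motif, each line runs 5′ to 3′ on the strand of the gene, and a match in letters is a description, not a site.
Nop2 (chr6:125131812-125131839, plus strand, 60 bases before the start): tgtccctggatCACGTGtgttccggtgc
Pes1 (chr11:3963966-3963993, plus strand, base 3 after the start): cctaggcagggCACGTGcgggaggaagt
Utp4 (chr8:106893644-106893671, plus strand, base 16 after the start): gcgcaagcgcgCACGTGgggccggggcg
Wdr43 (chr17:71616221-71616248, plus strand, base 18 after the start): gcccgggcgaaCACGTGgctgccgcgga
Utp20 (chr10:88826765-88826788, minus strand, base 38 after the start): ggcactaactaCACGTGaggaaaa
Noc4l (chr5:110653437-110653465, minus strand, TCF/LEF site 72 bases before the start): tctccggcgctCTTTGATgacgtacgccg
The distances are those of the first base of the motif. The 5 genes with an E-box belong to 40S assembly (Utp4, Wdr43, Utp20) and 60S assembly (Nop2, Pes1). They did not move as one group in the comparisons that follow. Between genotypes at day 7 Nop2 was lower in TCF-1 cKO cells and the other 4 did not pass the test. Between stages Utp20 and Wdr43 were called lower in WT, and Pes1 and Utp4 higher in TCF-1 cKO cells. Noc4l, the gene with the TCF/LEF letters, had the lowest log2 fold change of the 34 in the genotype comparison at day 7. After the removal of the GC trend described below, Polr1a (-1.63) lay below Noc4l (-1.57), and neither was called. Whether TCF-1 acts on Noc4l was not tested.

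Compared per length, the most abundant transcripts of the set before transplantation were those of Npm1, the nucleolar histone and ribosome chaperone (mean 406 TPM in WT, 315 TPM in TCF-1 cKO), followed in WT by Nop56 (187 TPM) and Nhp2 (135 TPM). At day 7 Nhp2, a core protein of the box H/ACA particle that guides pseudouridylation, stood first in both genotypes (497 TPM in WT and 456 TPM in TCF-1 cKO). Myc went from a mean of 81.1 TPM to 10.98 TPM in WT and from 36.8 TPM to 1.73 TPM in TCF-1 cKO libraries. Together the 34 genes took 0.257% to 0.362% of the counts before transplantation and 0.232% to 0.302% at day 7.

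Before transplantation no member passed the test between genotypes, although most stood lower in TCF-1 cKO libraries. The log2 fold change was negative for 32 of 34 members, with a median of -0.70 and a range from -2.08 to 0.36. With the quasi-likelihood test of edgeR and Benjamini-Hochberg adjusted p below 0.1, 0 of 34 were called, against 0.0213% of 18757 genes called lower and 0.016% called higher, and the smallest adjusted p among members was 0.1995. At an unadjusted p below 0.05 the test gave 9 members, and 17.7% of all genes. Negative values also prevailed among genes of like level, and whether the members exceeded that background was not tested. Among the 9087 genes whose mean level lay in the members' range, 70.4% were negative, with a median of -0.43, although the median of all tested genes was 0.05. Scaled by library totals, 27 of 34 were negative, with a median of -0.36 where the median of all genes was 0.39.

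The member with the lowest log2 fold change was Gpatch4, a G-patch protein of the nucleolus. Its level was 43.4, 40.6 and 42.4 normalised CPM in the 3 WT libraries and 4.84, 12.2 and 12.8 in the TCF-1 cKO libraries, which leaves a wide gap between the groups (log2 fold change -2.08 ± 0.56 SE, adjusted p = 0.1995 by edgeR's quasi-likelihood test). Noc4l, a partner of Nop14 in assembly of the small subunit, stood at 87.3, 95.4 and 98.4 CPM in WT and at 35.2, 21.4 and 30.0 CPM in TCF-1 cKO libraries (-1.70 ± 0.44, adjusted p = 0.1995 by the same test). Myc measured 142, 134 and 191 CPM in WT and 42.6, 40.9 and 111 CPM in TCF-1 cKO, so the groups did not overlap but TCF-1 cKO replicate 3 lay close to WT (-1.27 ± 0.49, adjusted p = 0.238). For single genes the exact two-sided permutation test could not go below p = 0.1 with 3 libraries against 3, and it gave this value for Myc, Noc4l and Gpatch4. Nop14 itself had a value of -1.52, Noc2l, which acts in 60S assembly, -1.08, and the box C/D protein Nop56 -0.94. On the other side were Nop58 and Wdr12 at 0.36 each. Ncl (-0.50), Npm1 (-0.59), Fbl (-0.83), Polr1a (-0.43) and Ubtf (-0.42) all had standard errors between 0.42 and 0.49, so none of them passed. Groups did not overlap for 10 of the 34, all with TCF-1 cKO lower, against 10.8% of all tested genes.

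The count rested on TCF-1 cKO pre-transplant replicate 3. Without it 12 members were called lower (Myc, Fbl, Nop56, Nop10, Bop1, Pes1, Rrs1, Noc2l, Noc4l, Nolc1, Polr1c and Gpatch4), with Bop1 at -2.84 and Myc at -2.05, and 12.7% of all tested genes were called with either sign. That library resembled WT more for members of high GC content. The 20 members above 49.2% GC, the median of the genes tested at day 7, summed to 1739 normalised CPM in it, against 876 and 847 in replicates 1 and 2 and 1937 to 2187 in WT.

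**Figure D1:**
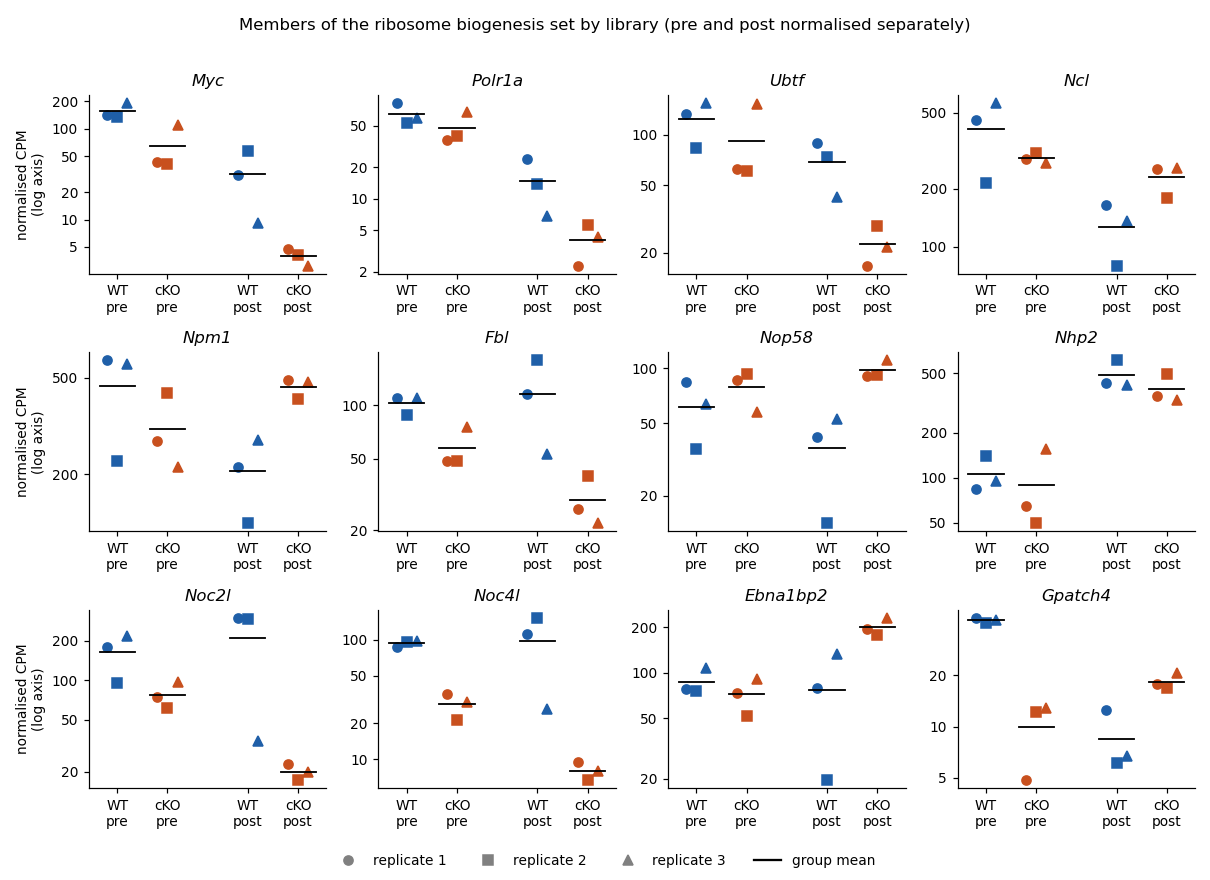
Normalised CPM (log axes) of 12 of the 34 genes in each of the 12 libraries, with blue for WT, orange for TCF-1 cKO, marker shapes for replicates and black lines for group means; pre- and post-transplant libraries were normalised separately, so only levels within a stage compare. Noc4l and Gpatch4 separate the genotypes before transplantation, and Myc (9.17 to 56.3 CPM in WT, 3.12 to 4.76 CPM in TCF-1 cKO) does so at day 7.

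At day 7 the set split. Of the 34 members, 11 were called lower and 0 higher in TCF-1 cKO relative to WT cells. That is 32.4% of the members called lower, against 15.4% of 16026 genes called lower and 2.51% called higher. Those lower were Myc, both Polr1a and Ubtf of RNA polymerase I transcription, the box C/D methyltransferase Fbl, the box H/ACA protein Gar1, Noc4l, Rrp9 and Pwp2 of 40S assembly, and Noc2l, Bop1 and Nop2 of 60S assembly. The genotypes did not overlap for 13 members with TCF-1 cKO lower (18.8% of all genes) and for 11 with TCF-1 cKO higher (20.5%). The other 23 members included 15 with a positive log2 fold change, and the median over all 34 was -0.14 where that of all tested genes was 0.15. Among the 8828 genes whose mean level lay in the members' range the median was -0.23. Of those genes 55.2% were negative, and of the 34 members 19 were. Scaled by library totals, the median of all genes moved to 0.54 and that of the members to 0.33, and 6 of the 11 passed there too (Myc, Noc4l, Noc2l, Bop1, Rrp9 and Pwp2), where 13.9% of all genes were called. Mitochondrial transcripts took 4.68% to 8.15% of the counts in TCF-1 cKO against 1.08% to 4.60% in WT day 7 libraries, with no overlap, and transcripts of ribosomal proteins 11.6% to 13.0% against 6.42% to 11.6%. The part of these shares in the split was not tested.

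Myc stood at 30.8, 56.3 and 9.17 normalised CPM in the WT libraries and at 4.76, 4.06 and 3.12 CPM in TCF-1 cKO libraries. Every TCF-1 cKO library was below every WT library, and WT replicate 3 came nearest to them. The log2 fold change was -3.01 ± 0.70 SE (8.06-fold lower, adjusted p = 0.0448 by edgeR's quasi-likelihood test), and -3.49 without WT replicate 3. Over 20 alternative settings it ranged from -3.49 to -1.16 and passed in 12.

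Of the RNA polymerase I genes, Polr1a encodes the largest subunit of the enzyme. It measured 23.9, 13.9 and 6.82 CPM in WT against 2.29, 5.61 and 4.29 CPM in TCF-1 cKO (-1.87 ± 0.62, adjusted p = 0.0923 by edgeR's quasi-likelihood test). Ubtf, the factor that loads the polymerase on ribosomal DNA, measured 89.3, 74.0 and 42.7 CPM in WT against 16.7, 28.7 and 21.5 CPM in TCF-1 cKO (-1.62 ± 0.48, adjusted p = 0.0697, same test). Both genes kept the groups apart in CPM. In TPM the groups of Polr1a overlapped, with WT replicate 3 at 0.644 TPM against 0.73 to 1.413 TPM in TCF-1 cKO libraries. Polr1c, shared between polymerases I and III, had a value of -1.55 ± 0.71 with overlapping groups and did not pass (adjusted p = 0.194, same test).

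The nucleolar organisers lay on the other side of 0. Npm1 measured 216, 126 and 276 CPM in WT against 490, 408 and 479 CPM in TCF-1 cKO, with no overlap (1.16 ± 0.42, adjusted p = 0.119 by edgeR's quasi-likelihood test). Ncl, the RNA-binding protein nucleolin, measured 166, 79.8 and 137 CPM in WT against 255, 179 and 256 CPM in TCF-1 cKO (0.85 ± 0.44, adjusted p = 0.24, same test). Neither passed, and Gnl3 at 1.40 and Nolc1 at 0 did not either. Without WT replicate 3, Npm1 (1.38) and Gnl3 (1.96) were called higher.

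Proteins of the same particle had values of both signs. In the box C/D particle, which methylates ribosomal RNA, Fbl measured 115, 177 and 53.3 CPM in WT against 26.3, 40.2 and 22.0 CPM in TCF-1 cKO (-1.96 ± 0.56, adjusted p = 0.0613 by edgeR's quasi-likelihood test), while its partner Nop58 measured 42.2, 14.1 and 52.5 CPM in WT against 91.1, 91.5 and 110 CPM in TCF-1 cKO (1.43 ± 0.55, adjusted p = 0.134). Both pairs of groups were apart, with opposite signs, and the third protein, Nop56, had 0.23 ± 0.40. In the box H/ACA particle Gar1 was called (-2.16 ± 0.60, adjusted p = 0.0568, same test), and the pseudouridine synthase Dkc1 (1.62), Nop10 (0.48) and Nhp2 (-0.31) were not.

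Among the 40S factors Noc4l measured 113, 153 and 26.2 CPM in WT and 9.52, 6.67 and 7.96 CPM in TCF-1 cKO (-3.59 ± 0.70, adjusted p = 0.0448 by edgeR's quasi-likelihood test). WT replicates 1 and 2 stood far above the TCF-1 cKO libraries, and replicate 3 between them. Rrp9, the U3 snoRNP protein, had -3.16 ± 0.65 and Pwp2, a protein of the U3 processome, -2.43 ± 0.56, with the same adjusted p of 0.0448. The other 6 ran from Rrp12 at -1.24 to Wdr43 at 1.37, and none passed.

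Of the 60S factors Noc2l measured 300.1, 296.8 and 34.5 CPM in WT against 22.9, 17.1 and 19.8 CPM in TCF-1 cKO (-3.40 ± 0.78, adjusted p = 0.0448 by edgeR's quasi-likelihood test). Bop1 and Pes1 act with Wdr12 as 1 complex in maturation of the large subunit. Bop1 was called at -3.27 ± 0.85, with WT libraries at 281, 604 and 40.7 CPM and TCF-1 cKO libraries at 34.4, 32.0 and 29.8 CPM. Pes1 had -0.50 ± 0.41 and Wdr12 1.22 ± 0.44, and neither passed. Nop2, a ribosomal RNA methyltransferase, was called at -2.31 ± 0.69. Gpatch4 measured 12.5, 6.08 and 6.77 CPM in WT and 17.8, 16.7 and 20.5 CPM in TCF-1 cKO, higher in all TCF-1 cKO libraries but not called (1.12 ± 0.48, adjusted p = 0.169, same test).

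**Figure D2:**
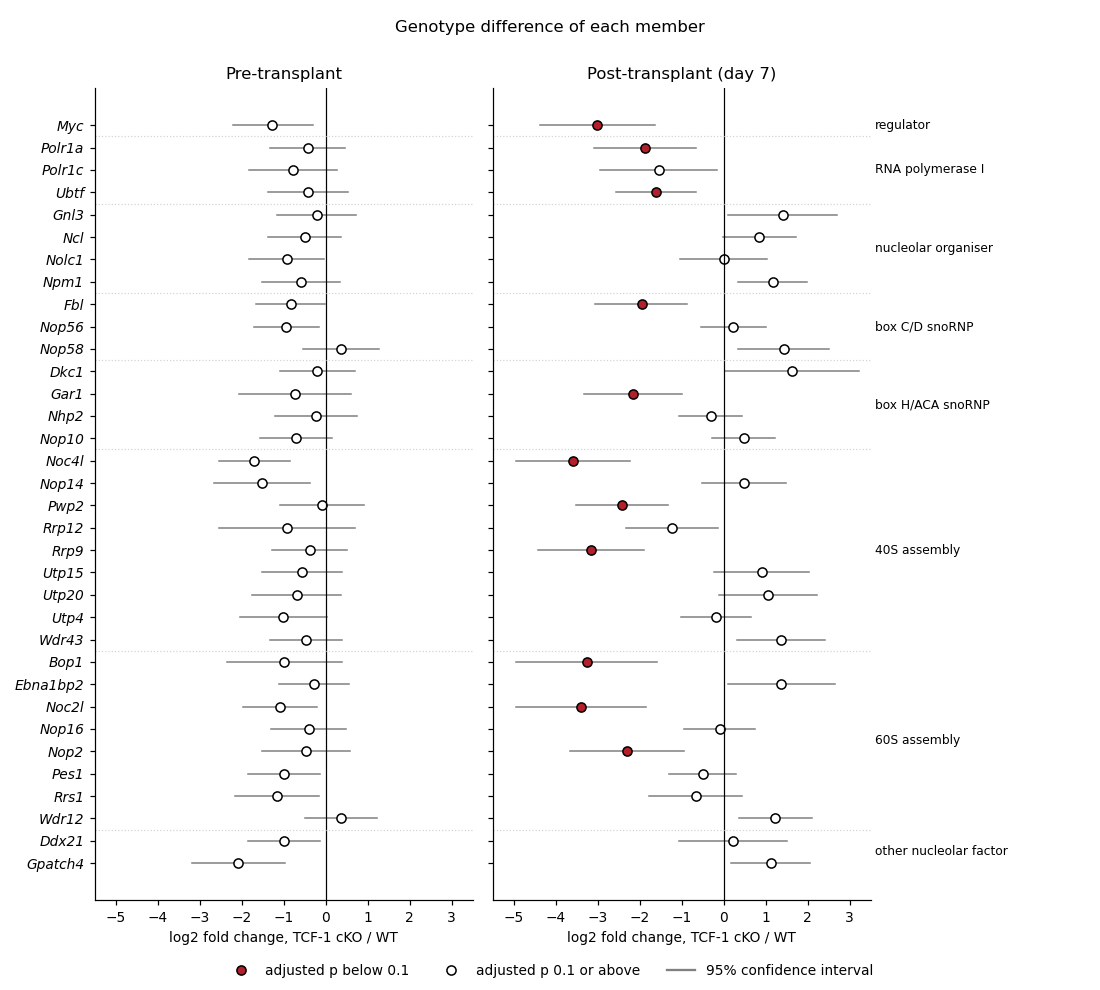
Log2 fold change of TCF-1 cKO over WT for each of the 34 genes, before transplantation (left) and at day 7 (right), grouped by role. Lines are 95% confidence intervals by a normal approximation. They are narrower than the test implies, so a line clear of 0 need not pass it. Red points have an adjusted p below 0.1. No point is red on the left, where 32 of 34 lie below 0, and 11 are red on the right, all below 0.

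Single libraries moved this count. Without WT post-transplant replicate 3 19 members were called, 12 lower (the same 11 and Rrp12) and 7 higher (Npm1, Nop58, Dkc1, Wdr12, Wdr43, Gnl3 and Ebna1bp2), against 29.1% of all genes with either sign. Leaving out any one of the other 5 day 7 libraries brought the count to 0, with 0 to 2 genes called among all tested.

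The split ran along the GC content of the transcripts. All 11 members called lower were among the 20 above 49.2% GC, the median of the tested genes, where 30.3% of all genes were called lower. The median log2 fold change of these 20 members was -1.75 against -1.03 for all genes above that value. Of the 14 members below it, 13 had a positive log2 fold change and 0 were called, with a median of 1.10 against 0.64 for all genes below. Across the 34 members Spearman's rho of log2 fold change with GC content was -0.859, and across all tested genes -0.579. Both are descriptions over genes measured in the same libraries, and genes do not replicate a condition.

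The same gradient ran between libraries of one genotype. Between WT replicates 2 and 3 the rho across members of their log2 ratio with GC content was 0.834, with a median ratio of 0.93 for the 20 members of higher and -1.16 for the 14 of lower GC content. Between TCF-1 cKO libraries of day 7 the rho lay between -0.223 and 0.369. In normalised CPM, the 20 members of higher GC content summed to 2260, 3022 and 1112 in the WT and 863, 1122 and 835 in the TCF-1 cKO day 7 libraries, so WT replicate 3 lay within the range of TCF-1 cKO libraries. The 14 of lower GC content summed to 888, 455 and 991 against 1568, 1389 and 1703, where the genotypes did not overlap.

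When each library's trend on GC content and length was removed, 0 of 34 members were called at day 7, with 2 of all 16026 genes called (0% lower and 0.0125% higher). The median of the members went to 0.12, 16 of 34 were negative, and their rho with GC content was -0.375. Myc had -1.21 ± 0.42 (adjusted p = 0.185 by edgeR's quasi-likelihood test), Noc4l -1.57 ± 0.38 (adjusted p = 0.128), Polr1a -1.63 ± 0.53 (adjusted p = 0.176), Ubtf 0 ± 0.36, Fbl -0.10 ± 0.29, Npm1 0.19 ± 0.26 and Ncl 0.10 ± 0.29. The largest positive value was that of Gpatch4 at 1.95 ± 0.45 (adjusted p = 0.124). GC content and genotype moved together in these libraries, so a change carried by genes of high GC content and a difference in how such transcripts were recovered cannot be told apart. Before transplantation the same correction left 29 of 34 members negative with a median of -0.64, and 0 were called (0.0107% of all genes lower and 0.00533% higher).

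**Figure D3:**
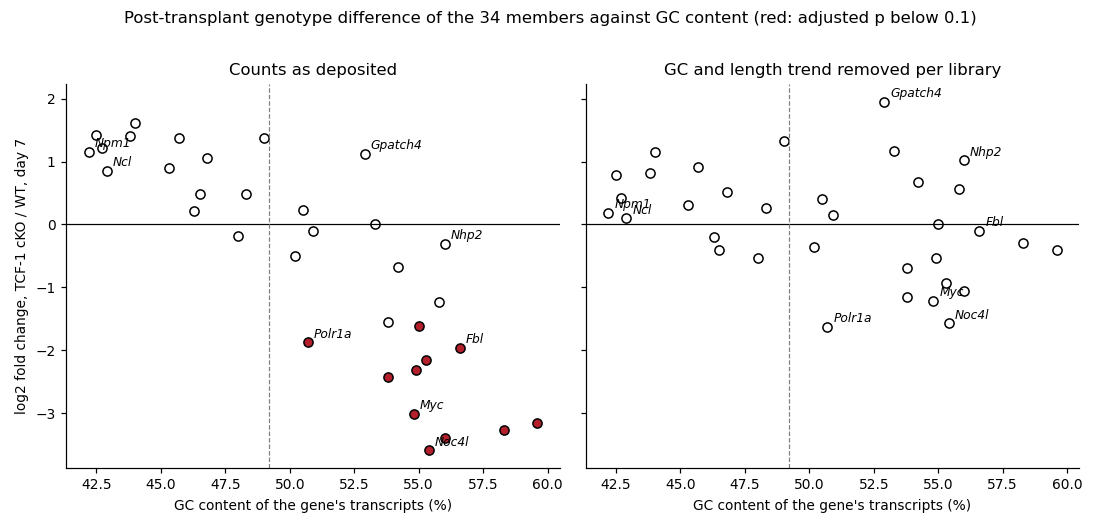
Log2 fold change of TCF-1 cKO over WT at day 7 against the GC content of each gene's transcripts (%) for the 34 genes, from the deposited counts (left) and after each library's trend on GC content and length was removed (right); red points have an adjusted p below 0.1 and the dashed line marks 49.2%. The points fall along a line on the left (rho -0.859), and on the right they scatter about 0 with no red point.

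**Figure D4:**
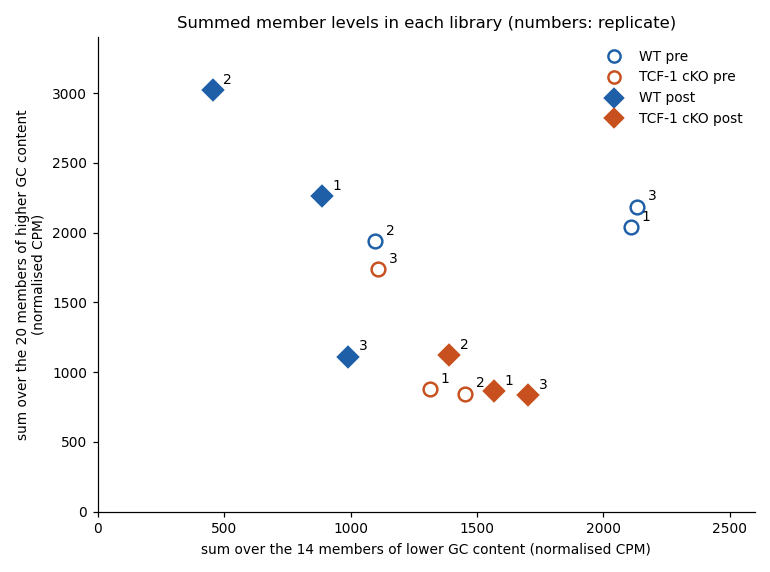
Summed normalised CPM of the 20 members of higher GC content (vertical) against that of the 14 of lower GC content (horizontal) in each library, with open circles for pre- and filled diamonds for post-transplant libraries, blue for WT, orange for TCF-1 cKO and replicate numbers beside the points. WT day 7 libraries spread from 1112 to 3022 on the vertical axis, and the 3 TCF-1 cKO day 7 libraries sit together at 835 to 1122.

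From pre-transplant libraries to day 7, the direction of many members depended on the scaling. With TMM 17 of 34 had negative values in WT and 10 in TCF-1 cKO cells, and with library totals 26 and 23 did. With the 12 libraries normalised together, the composition factors (TMM) were 1.23 to 2.31 in pre-transplant and 0.456 to 0.695 in day 7 libraries. The stage comparisons were fitted within each genotype with TMM factors of their own. There, replacing TMM by library totals moved the median of all genes from -0.30 to -1.25 in WT and from -0.29 to -1.89 in TCF-1 cKO cells. Both stages also differ in the B cell and erythroid transcripts given above, whose part in these values was not tested. Fewer cells of a type and less RNA per cell cannot be told apart in bulk libraries. Per-library values here are CPM of the library total.

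Myc was lower at day 7. In WT it measured 124, 132 and 156 CPM before and 25.7, 37.5 and 10.3 CPM after transplantation, and in TCF-1 cKO cells 50.1, 48.5 and 111 CPM before and 5.60, 4.58 and 3.72 CPM after, with no overlap in either genotype. Under TMM the change was -2.44 ± 0.57 in TCF-1 cKO cells (adjusted p = 0.011 by edgeR's quasi-likelihood test) and passed in all 20 alternative settings, with library totals at -3.92. In WT it was -1.40 ± 0.63 and did not pass (adjusted p = 0.177, same test), but did with library totals (-2.49, adjusted p = 0.0127) and after removal of the GC trend (-2.14, adjusted p = 0.00811), and over the 20 settings the adjusted p ran from 0.00811 to 0.498.

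In WT cells 5 of 34 members were called, Utp20 (-2.73 ± 0.72) and Wdr43 (-2.07 ± 0.62) lower and Nhp2 (3.11 ± 0.48), Rrp9 (2 ± 0.61) and Polr1c (1.45 ± 0.51) higher. That is 5.88% lower and 8.82% higher, against 10.3% and 9.7% of 16790 genes. With library totals the split was 11 lower and 1 higher, and the 3 with the same call were Utp20, Wdr43 and Nhp2, where 28.9% of all genes were called with either sign. Nhp2 went from 73.5, 137 and 77.0 CPM to 360, 405 and 466 CPM and was called higher in all 20 alternative settings. Utp20, the long scaffold protein of the small subunit precursor, went from 49.9, 21.1 and 31.1 CPM to 3.16, 0.96 and 4.41 CPM. Without WT post-transplant replicate 3, 11 members were called, with Wdr43 (-2.56) and Utp20 (-2.87) lower and Fbl (1.58), Nop2 (1.83), Nop10 (1.28), Nhp2 (3.35), Bop1 (2.39), Rrp9 (2.61), Noc2l (1.91), Noc4l (1.56) and Polr1c (1.88) higher, against 22.2% of 18719 genes. Without any one of 3 other libraries (WT pre-transplant replicates 1 or 3, WT post-transplant replicate 1) only Nhp2 was called. Of the other fixed names, Fbl was at 1.06 ± 0.53, Ncl at -0.76 ± 0.53, Npm1 at -0.22 ± 0.54, Polr1a at -1.23 ± 0.60 and Ubtf at 0.06 ± 0.51, and none passed. After removal of the GC trend 6 were lower, Myc, Wdr43, Rrs1, Utp20, Nolc1 and Gpatch4, and 2 higher, Nhp2 and Pes1, against 10.3% and 9.19% of all genes. Under TMM the stages did not overlap for 9 members with day 7 lower (20.3% of all genes) and for 5 with day 7 higher (12.9%).

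In TCF-1 cKO cells 17 of 34 members were called, 2 lower (Myc and Polr1a) and 15 higher, or 5.88% and 44.1%, against 16.8% and 19.7% of 18535 genes. The median was 0.80 under TMM and -0.81 with library totals, where 15 were lower and 3 higher (Nhp2, Nop10 and Ebna1bp2) and 66.2% of all genes were called. Nhp2 went from 76.3, 58.9 and 155 CPM to 415, 553 and 392 CPM (3.68 ± 0.56, adjusted p = 0.00121 by edgeR's quasi-likelihood test). Nop10, its partner in the box H/ACA particle, went from 57.5, 70.0 and 103 CPM to 215, 251 and 234 CPM (3.11 ± 0.44, adjusted p = 0.000863). Ebna1bp2, a 60S assembly factor, went from 86.4, 61.1 and 90.7 CPM to 228, 201 and 273 CPM (3.10 ± 0.41, adjusted p = 0.000648). In each of these 3 genes every day 7 library was above every pre-transplant library even as a share of the total, and each passed in all 20 alternative settings.

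Polr1a went from 43.5, 47.3 and 67.9 CPM to 2.69, 6.32 and 5.10 CPM in TCF-1 cKO cells (-1.99 ± 0.51, adjusted p = 0.0167 by edgeR's quasi-likelihood test) and from 72.2, 51.9 and 48.5 CPM to 19.9, 9.28 and 7.67 CPM in WT, where it passed only with library totals (-2.23). The other 12 members called higher in TCF-1 cKO cells under TMM were Gpatch4 (2.51), Npm1 (2.26), Dkc1 (2.21), Nop14 (2.14), Nop58 (1.97), Pes1 (1.76), Nop16 (1.65), Utp4 (1.61), Nop56 (1.57), Ncl (1.33), Gnl3 (1.28) and Ddx21 (1.26). None of these 12 was called with library totals, where their values ran from -0.37 to 0.95. By role, 3 of the 4 box H/ACA genes, 3 of the 4 nucleolar organisers, 2 of the 3 box C/D genes and 3 of the 8 60S factors were higher under TMM, but only 2 of the 9 40S factors and 0 of the 3 RNA polymerase I genes. Fbl (0.63 ± 0.41) and Ubtf (-0.48 ± 0.49) did not pass, but with library totals both were called lower at -0.90 and -1.95. Under TMM the stages did not overlap for 3 members with day 7 lower (24% of all genes) and for 17 with day 7 higher (23%), and after removal of the GC trend 2 were lower and 15 higher (19.3% and 20% of all genes).

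**Figure D5:**
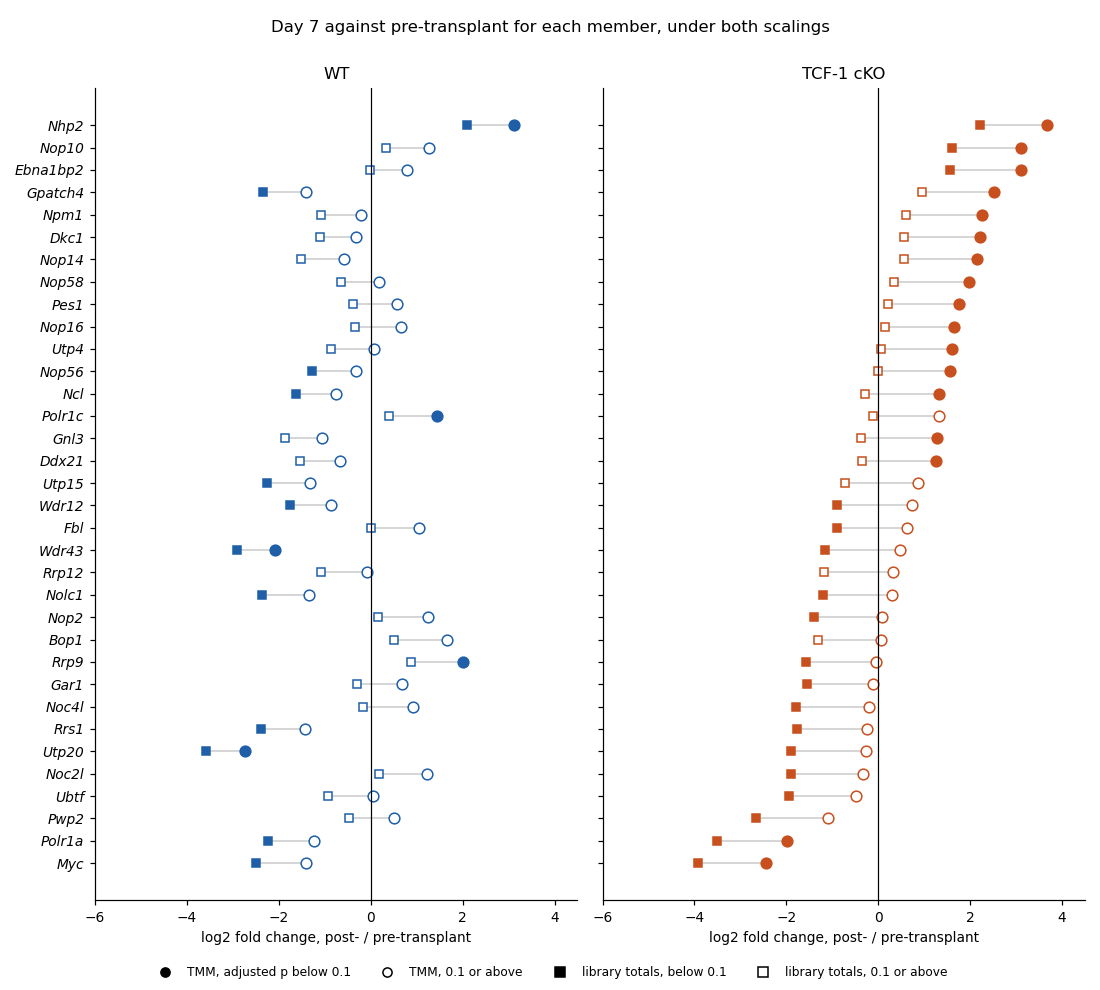
Log2 fold change of day 7 over pre-transplant for each of the 34 genes in WT (left) and TCF-1 cKO cells (right), with circles for TMM and squares for library totals joined by a line, and filled symbols for an adjusted p below 0.1. Squares lie to the left of circles for every gene; Nhp2 is filled on the right of 0 in all 4 cases, and Myc and Polr1a are filled on the left of 0 under both scalings in TCF-1 cKO cells.

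Whether the genotype difference changed with transplantation was asked with an interaction term fitted to the 12 libraries together. By edgeR's quasi-likelihood test 0 of 34 members were called, against 1 of 21526 genes (0.00465% called lower and 0% higher), and 16 had an unadjusted p below 0.05, where 15.7% of all genes did. The interaction was negative for 12 members and its median was 1.14, with that of all genes at 0.04. The 8233 genes whose mean level lay in the members' range had a median of 0.27. The 14 members of lower GC content were all positive, with a median of 2.01, and after removal of the GC trend all 14 remained so at a median of 1.36. Gpatch4 had the smallest p (3.68 ± 0.74, adjusted p = 0.233 by edgeR's quasi-likelihood test), followed among positive values by Nop14 (2.50), Npm1 (2.23), Wdr43 (2.26), Nop56 (1.65) and Ncl (1.85). On the negative side stood Rrp9 (-2.30), Pwp2 (-1.84), Noc2l (-1.77), Noc4l (-1.36), Nop2 (-1.43) and Bop1 (-1.86). Myc had -1.28 ± 0.86, Polr1a -0.97 ± 0.75, Ubtf -0.77 ± 0.72 and Fbl -0.68 ± 0.67. Without WT post-transplant replicate 3, 9 members were called, 7 positive (Ncl, Npm1, Dkc1, Wdr43, Gnl3, Ebna1bp2 and Gpatch4) and 2 negative (Rrp9 and Noc2l), against 8.73% of 23972 genes.

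Genes of the same pathway outside the 34 were counted in lists. Of all genes tested at day 7, 15.4% were called lower in TCF-1 cKO cells and 2.51% higher. At day 7, 7 of 33 further 40S factors were lower in TCF-1 cKO cells and 0 higher, among them Bysl (-2.53), Nop9 (-3.46) and the acetyltransferase Nat10 (-2.67). Of 32 further 60S factors 5 were lower, among them the helicases Ddx54 (-3.44), Ddx56 (-3.34) and Ddx51 (-2.17), and of 12 further genes of RNA polymerase I 3 were lower, Taf1c (-4.95), Polr1b (-2.04) and Rrn3 (-1.71), the factor that makes the polymerase competent to start. In the snoRNP assembly list 1 of 6 was lower, Ruvbl2 (-1.92), and in the RNA exosome, which trims ribosomal RNA, Exosc5 (-3.60) and Exosc4 (-2.60) were lower and Exosc9 (1.87) higher of 11. The median log2 fold change of the 40S list was 0.84 and that of the 60S list 0.60, so most members of both lists had values above 0 and did not pass. Without WT post-transplant replicate 3, 9 of the 40S list were lower and 9 higher, 5 and 7 of the 60S list, 3 and 1 of the RNA polymerase I list, 2 and 0 of the snoRNP list, and 4 and 3 of the exosome list. In that setting 29.1% of all genes were called with either sign. After removal of the GC trend 0 genes of these lists were called.

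In the network of Myc partners and antagonists 5 of 11 tested genes were lower in TCF-1 cKO than in WT cells at day 7. Of these the antagonists Mxd1 (-2.21) and Mxd3 (-2.04) and the Myc partner Zbtb17 (-1.92) had the smallest p. Of 35 Myc target genes outside ribosome biogenesis 8 were lower and 1 higher in TCF-1 cKO than in WT cells at day 7. The serine hydroxymethyltransferase Shmt2 (-3.93), the amino acid transporter subunit Slc3a2 (-2.83) and the purine enzyme Gart (-2.32) were among those lower. After removal of the GC trend 0 genes of either list were called, and the values were -2.03 for Mxd1, 0.16 for Mxd3, 0.82 for Zbtb17, -1.29 for Shmt2, -1.11 for Slc3a2 and -1.39 for Gart. Without WT post-transplant replicate 3, 5 of the network were lower and 0 higher, and 10 and 7 of the targets, against 29.1% of all genes with either sign. From pre-transplant to day 7 the same 35 targets included 12 called higher in WT and 23 in TCF-1 cKO cells, against 9.7% and 19.7% of all genes. Ldha stood at 3.75 and 4.58 and Nme2 at 3.02 and 4.78. Of 10 proliferation genes 9 were higher at day 7 in WT and 10 in TCF-1 cKO cells with Ccnb1 at 3.54 and 5.03. Without that library 14 of the targets and 9 of the proliferation genes were higher in WT, where 22.2% of all genes were called with either sign. Before transplantation 0 genes of these lists differed between genotypes. All counts of these lists are from edgeR's quasi-likelihood test at an adjusted p of 0.1, and the backgrounds are the shares given for each comparison above.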

How the data were processed

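RNA was measured in 12 libraries, 3 for each of 4 groups taken from the sample labels. Per the study's methods and labels, total RNA was amplified with a SMART-Seq kit and made into Nextera XT libraries, which keep no strand, so reads of overlapping genes cannot be told apart. The authors deposited Kallisto 0.46.2 estimated counts and TPM per transcript. Submitters' notes also name limma and mm9, and the transcript release is not given in the sources used here. Of 117497 transcripts, 116374 matched GENCODE M21 by identifier and 99.5% of these had its length. Estimated counts deposited by the authors were summed per gene (35855 genes) and rounded. TPM, as the authors gave it, was summed per gene and used to give levels per length.

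Comparisons used edgeR 4.0.16 (filterByExpr, TMM, quasi-likelihood test) in R 4.3.3 with Benjamini-Hochberg adjustment over all genes tested and a threshold of 0.1. Genotypes were compared within a stage, stages within a genotype, and the interaction over all 12 libraries. Each SE was the log2 fold change, without its sign, divided by the square root of the test's F statistic. Confidence intervals used normal quantiles of that SE. GC content and length trends were removed per library with loess (span 0.4, degree 2, prior count 2). Alternatives were limma 3.58.1 (voom), DESeq2 1.42.0, other scalings and filters, a replicate block and leaving out each library, which was repeated for the other lists after the data were seen (without WT post-transplant replicate 3). The edgeR test, with and without the GC and length offset, was tried on simulated counts for the comparisons within a stage or a genotype. The interaction and the other settings were not. Replicates differed by more than sampling noise (chi-square per degree of freedom 25.2 to 751), so none was counted as a duplicate. Depth limits are for counting error only.

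The 34 genes and the other lists were chosen with earlier results of these data known. Genes named throughout were Myc, Ncl, Npm1, Fbl, Polr1a and Ubtf, and in each comparison up to 6 members in each direction, and up to 3 genes per other list, with the smallest p. Further members named, such as partners in a complex or every member called, were picked with their values known. The genes most like Myc across libraries are not given, because the libraries form separate clusters by stage. Python 3.11.15, numpy 2.4.6, pandas 2.3.3 and matplotlib 3.10.9 were used for tables, promoter searches and plots.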

Additional observations from a re-analysis of the deposited data

Results flagged for a closer look

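Gpatch4 and Nop10 moved in opposite directions in the 2 stages. Every TCF-1 cKO library lay below every WT library before transplantation and above every one at day 7. Of all tested genes, 10.8% were lower without overlap before transplantation and 20.5% higher without overlap at day 7. The share of genes with both was not counted, so whether these 2 exceed that background was not tested. For Gpatch4 the log2 fold change of TCF-1 cKO over WT was -2.08 before and 1.12 at day 7, and the interaction was 3.68 (adjusted p = 0.233 by edgeR's quasi-likelihood test, and 0.1001 after removal of the GC trend), which did not pass 0.1. For Nop10 the values were -0.71 and 0.48, and the interaction was 1.59 (adjusted p = 0.2653, same test), which did not pass either.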

How the results depend on the processing

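Counts of members called depended on the processing. With voom and sample quality weights they were 17 pre-transplant, 22 at day 7, 14 for WT stages and 16 for the interaction (40.3%, 47.4%, 37.6% and 16% of all genes), and with the DESeq2 Wald test 3, 18, 8 and 11 (7.97%, 28.3%, 29% and 11.9% of genes with an adjusted p). Without a filter on low counts they were 2 pre-transplant and 1 for the interaction (1.93% and 1.72% of all genes). With library totals they were 6 at day 7 and 12 for WT stages (13.9% and 28.9% of all genes). At an FDR of 0.05 they were 5 and 2 (8.71% and 13.4%), and with counts scaled from TPM 3 for WT stages (18.9%). With the GC and length offset they were 0 at day 7 and 8 for WT stages (0.0125% and 19.5% of all genes), and with the GC offset 0 and 10 (0.0187% and 24.8%). Counts for TCF-1 cKO stages stayed within 1.5 times of 17 in these settings, where 20.6% to 66.2% of all genes were called. Their direction did not stay the same. The 17 were 2 lower and 15 higher, and with library totals 15 were lower and 3 higher. Only 5 members had the same call in both. Leaving out each library gave 0 to 12 pre-transplant, 0 to 19 at day 7, 1 to 11 for WT stages, 15 to 21 for TCF-1 cKO stages and 0 to 9 for the interaction. The shares of all genes called were 0% to 12.7%, 0% to 29.1%, 8.37% to 22.2%, 26.5% to 33.2% and 0% to 8.73%. Same-numbered libraries shared only a number (r of their deviations -0.148 to 0.185). With the replicate block the counts were 0, 9, 4, 16 and 0 (0%, 12.7%, 18.4%, 29.6% and 0% of all genes). At day 7 the count was 0 with the replicate block and the offset (0.0125%). Of the named members' values 39 changed sign, 112 gained and 117 lost a call, and 1312 did neither; the cause was not tested. Sign changes pre-transplant were Wdr12 and Nop58 at 0 without a filter and Nop58 at -0.27 with counts scaled from TPM. At day 7 they were Ncl at -0.01 and Fbl at 0.08 with the GC offset and Ubtf at 0.03 with block and offset. For WT stages they were Ubtf at -0.92 with library totals; Ncl at 0.15, Fbl at -0.39 and Ubtf at -0.01 with the GC and length offset; Npm1 at 0.13 and Ubtf at -0.35 with the GC offset; Ncl at 0.20 and Fbl at -0.37 with block and offset; Npm1 at 0.04 with 1 fit over all 12 libraries; and, leaving out 1 library each time, Ubtf from -0.17 to 0.44 and Npm1 from -0.56 to 0.30 (0.11 without WT post-transplant replicate 1). For TCF-1 cKO stages they were Ncl at -0.28 and Fbl at -0.90 with library totals; Ubtf at 0.26, Noc2l at 0.20 and Utp20 at 0 with the GC and length offset; Noc2l at 0.08 with the GC offset; Ubtf at 0.28 and Noc2l at 0.18 with block and offset; and, leaving out 1 library each time, Utp20 from -0.61 to 0.10, Ubtf from -0.65 to 0.40 and Noc2l from -0.48 to 0.09. For the interaction they were Bop1 at 0.04 with quality weights; Fbl at 0.28 and Ubtf at 0.02 with the GC and length offset; Fbl at 0.36, Ubtf at 0.05 and Bop1 at 0.01 with the GC offset; and Fbl at 0.27, Ubtf at 0.05 and Bop1 at 0.02 with block and offset. In the TCF-1 cKO pre-transplant libraries 3 counts are 0.313 to 0.664 CPM, which limits low genes there.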
